A study of Mus musculus with 88 samples.

Results

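Whole blood was compared between pristane-treated SNF1 mice at week 14 and pristane-treated SNF1 mice at week 12, the last pair of weeks sampled. The members were the 16 arrays whose titles give pristane treatment and these weeks, 8 per week, out of 88 arrays of the series. SNF1 mice, first-generation offspring of SWR and NZB parents, come down with lupus nephritis as they age, and pristane is a hydrocarbon oil that provokes lupus-like autoimmunity after injection into the peritoneum. Weeks count from the injection, which the study's methods place in young females without clinical signs of spontaneous disease. The pristane mice at weeks 14 and 12 therefore shared strain, sex and treatment and differed in the time since injection, and so in age. No untreated mice enter this comparison. Untreated, age-matched SNF1 mice at week 14 and week 12 (8 arrays each) served to measure the same interval without pristane. The labels number the arrays of a group from 1 to 8 and do not name the mice, so p-values measure the spread between arrays. Those from limma pool this spread over the groups of all 88 arrays.

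In pristane-induced lupus, the oil keeps up inflammation in the peritoneal cavity, type I interferon is produced through nucleic acid sensing, and autoantibodies to nuclear antigens form immune complexes that lodge in the glomeruli. Blood shows such disease through the cell types it carries: neutrophils and monocytes with their interferon-induced genes, lymphocytes and antibody-secreting cells, platelets, and red cells with the reticulocytes that still hold RNA. By the study's account the last weeks are those in which kidney disease is severe and mice become moribund, and moribund mice were euthanised. The comparison of week 14 with week 12 asks what changed in blood during this final stretch.

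Each value is a log2 signal of a probe set (a group of short probes for a transcript) as deposited by the authors after robust multi-array average (RMA) processing. A change of 1 on this scale is 2-fold, and levels are not compared between genes. Blood identity was plain on every array, with the alpha globin Hba-a1 at 12.70 or above on the pristane arrays of both weeks and the neutrophil protein S100a8 at 11.99 or above. Correlations among the 16 pristane arrays ran from 0.934 to 0.981. The interquartile range of an array's signals averaged 3.25 ± 0.20 in pristane mice at week 14 and 3.22 ± 0.16 at week 12 (SD, n = 8 each, exact permutation p = 0.725, two-sided). In untreated mice it averaged 3.53 ± 0.20 at week 14 and 3.30 ± 0.18 at week 12 (SD, n = 8 each), a gap that was not tested. The signal of the Gapdh control probe set at the 3′ end exceeded that at the 5′ end by 2.13 ± 0.38 at week 14 and 1.64 ± 0.32 at week 12 (SD, n = 8 each), a difference of 0.48 (exact permutation p = 0.0172, two-sided, and 0.0688 adjusted over the 4 array measures tested). This gap is a sign of RNA or labelling quality, its values in untreated mice were 2.02 ± 0.19 at week 14 and 1.80 ± 0.27 at week 12 (SD, n = 8 each), and its part in the results below was examined by adding it to the model. The labels give no plate or scan of an array.

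Between week 12 and week 14 of pristane treatment, 86 of 17097 genes were called (0.503%), 36 higher (0.211%) and 50 lower (0.292%) at week 14. Calls required more than a 2-fold change and an adjusted p under 0.05 in limma after Benjamini-Hochberg correction. The changes were modest in size. Called rises ran from 2.00-fold to 2.70-fold and called falls from 2.01-fold to 3.12-fold, while across all genes the median log2 change was 0.02. At the adjusted p alone, without the fold threshold, 601 genes passed (3.52%), 376 higher (2.2%) and 225 lower (1.32%). In 40 genes (0.234%) the 8 arrays of week 14 lay wholly beyond the 8 of week 12, 30 of them higher (0.175%) and 10 lower (0.0585%). The size of the call depended on the arrays that set the spread: a fit to the 16 pristane arrays alone called 20 higher and 18 lower, and 44 of the 74 genes named below as past the adjusted p threshold missed it there. Leaving out 1 of the 16 arrays made between 3 and 19 of these 74 genes miss the adjusted p threshold and turned the direction of none. It raised the higher calls to 59 (week 14 replicate 2), 57 (week 12 replicate 2) and 62 (week 12 replicate 4), and the lower calls to 85 (week 12 replicate 3). The fewest were 26 higher calls, as without week 14 replicate 1, and 36 lower calls, without week 12 replicate 8.

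The preceding intervals of the same course held no such calls. Pristane mice at week 4 against week 2, week 8 against week 4 and week 12 against week 8 each gave 0 called genes and 0 genes at an adjusted p under 0.05 in limma, with 595, 783 and 867 genes at an unadjusted p under 0.05, against 2823 for week 14 against week 12. Set against week 8 in place of week 12, week 14 had 100 higher (0.585%) and 132 lower genes (0.772%), with 16 of the 36 and 33 of the 50 genes of the main comparison called again in the same direction. These intervals share arrays with the main comparison, and whether the numbers of calls differ was not tested. Untreated mice at week 14 against week 12 had 2911 genes at an unadjusted p under 0.05 in limma.

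The genes that rose most at week 14 encoded enzymes, transporters and adhesion or signalling proteins of diverse function. Mical1, a flavoprotein that oxidises and dismantles actin filaments, ran from 8.35 to 9.68 (median 8.89) in pristane mice at week 14 and from 7.38 to 8.13 (median 7.58) at week 12. Every week 14 array was above every week 12 array, and the rise was 1.31 ± 0.21 on the log2 scale (SE, adjusted p = 3.74e-05). A further probe set of the gene gave 1.10 and passed as well. Itgb5, the beta subunit of an integrin that binds vitronectin, ran from 8.91 to 10.81 (median 10.42) at week 14 and from 8.12 to 9.98 (median 8.72) at week 12. Of the week 14 arrays, 6 lay above the highest of week 12, with a rise of 1.27 ± 0.22 (SE, adjusted p = 0.000178), and the other probe set gave 1.17 and passed. Slc38a10, a member of the amino acid transporter family SLC38, ran from 8.62 to 9.88 (median 9.27) at week 14 and from 7.59 to 8.52 (median 8.05) at week 12. Its groups did not overlap, the rise was 1.10 ± 0.19 (SE, adjusted p = 0.000101), and 3 of its 7 further probe sets passed in the same direction.

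Rasal3, a negative regulator of Ras in blood cells, ran from 8.66 to 9.53 (median 9.13) in pristane mice at week 14 and from 6.90 to 8.42 (median 8.14) at week 12, without overlap (rise 1.18 ± 0.21, SE, adjusted p = 0.000184). Msh5, a MutS homologue of meiotic recombination, ran from 6.56 to 8.01 (median 6.94) at week 14 and from 5.66 to 6.28 (median 6.01) at week 12, again without overlap (rise 1.14 ± 0.23, SE, adjusted p = 0.00139). Nlrx1, a mitochondrial member of the NOD-like receptor family, ran from 7.17 to 9.14 (median 8.69) at week 14 and from 7.08 to 8.18 (median 7.46) at week 12. In this gene 7 of 8 week 14 arrays lay above all of week 12 and replicate 2 lay among them (rise 1.11 ± 0.21, SE, adjusted p = 0.000479). The other named rises were Afg1l (1.43), a mitochondrial ATPase, the sialyltransferase St6galnac2 (1.35), the ubiquitin ligase Lrsam1 (1.18), Tnfrsf25 (1.17), the death receptor that binds TL1A, Gps1 (1.14), a subunit of the COP9 signalosome, and the laminin chain Lamc1 (1.13). Also called were Dnah8 (1.36), an axonemal dynein, and Prss39 (1.30), a serine protease known from testis. Afg1l was close to the threshold (adjusted p = 0.0491) and missed it in 10 of 16 fits that leave out 1 pristane array, and further probe sets of Dnah8 (0.10), Lamc1 (0.05) and St6galnac2 (0.42) did not pass. Afg1l, Prss39, Tnfrsf25 and Lamc1 missed the threshold in a fit to the 16 pristane arrays, Afg1l also with the Gapdh gap in the model, and Prss39 without week 12 replicate 1 (adjusted p = 0.0811).

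The genes that fell most likewise had diverse functions. Cbl, the ubiquitin ligase that restrains tyrosine kinase signalling, ran from 4.93 to 6.51 (median 5.96) in pristane mice at week 14 and from 6.75 to 7.57 (median 7.18) at week 12. All 8 arrays of week 14 were below all 8 of week 12, a change of -1.35 ± 0.22 (SE, adjusted p = 3.74e-05). The 2 further probe sets of Cbl gave 0.33 and 0.37 and did not pass, and the mean over its probe sets did not pass. Fam204a ran from 2.52 to 4.90 (median 4.07) at week 14 and from 5.06 to 5.65 (median 5.40) at week 12, without overlap and with a wider spread at week 14 (-1.39 ± 0.24, SE, adjusted p = 0.000149), while its 2 further probe sets (-0.51 and 0.0044) did not pass. Rprd2, which binds the tail of RNA polymerase II, ran from 3.68 to 6.04 (median 4.98) at week 14 and from 6.01 to 6.86 (median 6.07) at week 12. Here 7 arrays of week 14 fell below the lowest of week 12 (-1.40 ± 0.24, SE, adjusted p = 0.000103), and the 7 further probe sets were all negative, from -0.63 to -0.08, with none passing.

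Anp32e, a chaperone that removes the histone variant H2A.Z, ran from 9.10 to 10.92 (median 9.79) in pristane mice at week 14 and from 9.73 to 11.94 (median 11.49) at week 12. The ranges overlapped, the change was -1.40 ± 0.24 (SE, adjusted p = 9.79e-05), and the other probe set gave -1.43 and passed. Il1rn, the secreted antagonist of the interleukin-1 receptor, ran from 4.40 to 7.43 (median 5.61) at week 14 and from 6.56 to 7.72 (median 7.01) at week 12. The week 14 arrays spread widely, 7 of them below the lowest of week 12 and 1 above the median of week 12 (-1.34 ± 0.30, SE, adjusted p = 0.00367), and 1 of 2 further probe sets passed at -1.28. Tnfrsf21, the death receptor DR6, ran from 4.63 to 6.47 (median 5.55) at week 14 and from 5.71 to 7.51 (median 6.91) at week 12, with 4 arrays of week 14 below all of week 12 (-1.32 ± 0.25, SE, adjusted p = 0.000511). The other named falls were Lmbr1 (-1.64), a membrane protein, Ikbkg (-1.62), the regulatory subunit of the IkappaB kinase complex, the pseudogene Tes3-ps (-1.57), the co-chaperone Dnaja4 (-1.49), Sec23a (-1.42), a coat protein of vesicles leaving the endoplasmic reticulum, Nhsl2 (-1.32) and the alpha-arrestin Arrdc4 (-1.25). None of the 5 further probe sets of Ikbkg or of the 3 of Lmbr1 passed, nor did those of Tnfrsf21 (-0.07), Nhsl2 (-0.45 and -0.13), Dnaja4 (-0.71) and Arrdc4, which had the opposite sign (0.13). Tes3-ps, Dnaja4, Sec23a, Il1rn, Nhsl2 and Arrdc4 missed the threshold in a fit to the 16 pristane arrays, Dnaja4 and Sec23a also with the Gapdh gap in the model, and Dnaja4 in 8 of 16 fits that leave out 1 pristane array.

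**Figure D1:**
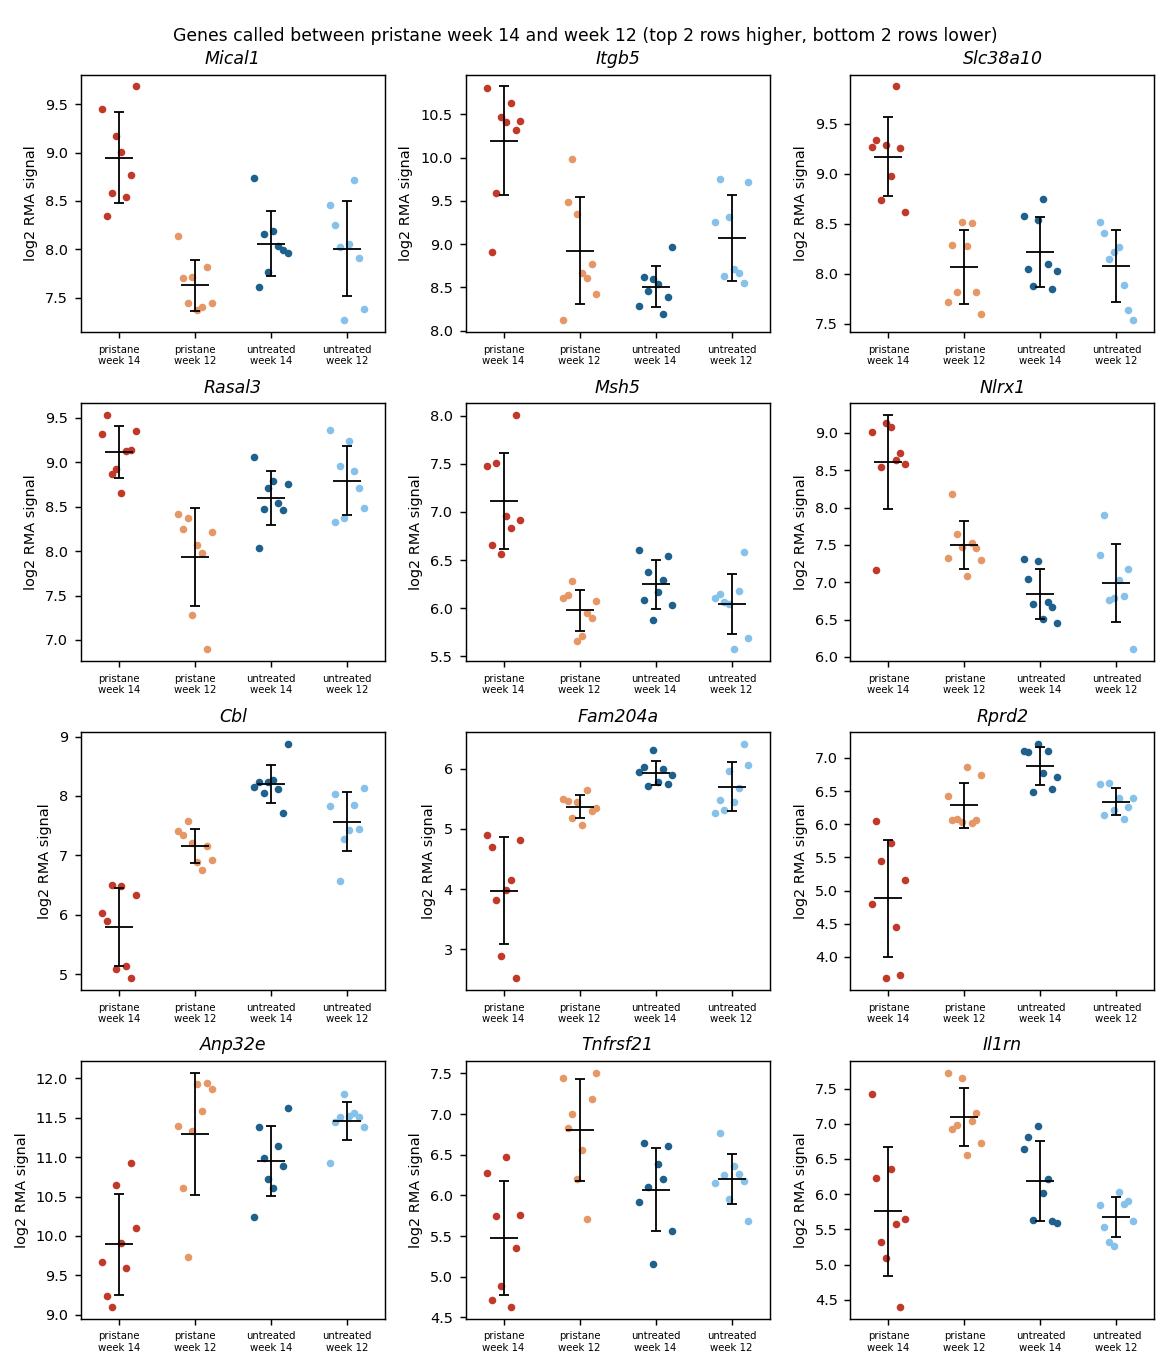
Log2 RMA signal (vertical axes, each panel with its own range) of 12 genes called between pristane week 14 and pristane week 12, with untreated mice at both weeks beside them. Points are single arrays, bars are the mean ± SD of 8 arrays; the top 6 genes were higher and the bottom 6 lower at pristane week 14, as for Mical1, whose week 14 arrays start at 8.35 where those of week 12 end at 8.13.

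The smallest adjusted p-values belonged to genes with changes under 2-fold, and both genes named here were chosen after their values were seen. Mrfap1, a small nuclear protein, ran from 10.64 to 11.25 (median 10.88) in pristane mice at week 14 and from 11.41 to 11.94 (median 11.58) at week 12, without overlap and with -0.71 ± 0.09 (SE, adjusted p = 1.11e-07). Fkbp8, an immunophilin of the mitochondrial surface, ran from 8.17 to 8.71 (median 8.48) at week 14 and from 7.25 to 7.89 (median 7.60) at week 12, also without overlap (0.87 ± 0.13, SE, adjusted p = 1.76e-05). Both kept within a narrow band on each side.

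Untreated mice were then measured over the same interval. Week 14 against week 12 without pristane gave 8 called genes (0.0468%), 4 higher (0.0234%) and 4 lower (0.0234%), and 12 at the adjusted p alone (0.0702%). At an unadjusted p under 0.05 in limma there were 2911 genes, beside 2823 in pristane mice. The count of called genes was unstable, from 0 with the Gapdh gap in the model to 227 with arrays weighted by their quality. The difference between the change in pristane mice and that in untreated mice was tested directly. It was called in 218 genes (1.28%), 69 with a more positive change under pristane (0.404%) and 149 with a more negative one (0.871%), and its median over all genes was 0.09. At the adjusted p alone, 0.877% of genes were more positive and 1.28% more negative. Of the 36 genes that rose under pristane, 13 passed this test, and of the 50 that fell, 25 passed. The untreated change had no common direction in these genes, being above 0 in 21 of the 36 and in 27 of the 50. The test of the difference shares the pristane arrays with the main comparison. Leaving out week 14 replicate 2 raised the more positive calls to 131, and leaving out week 12 replicate 1 gave 45. The more negative calls were 96 without week 14 replicate 4, 89 without week 14 replicate 7 and 95 without week 12 replicate 1. With the interquartile range of an array's signals in the model, the more positive calls were 169 and the more negative 95.

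The genes with the largest difference had changes of opposite sign in pristane and untreated mice, which ranking by this difference favours. Itgb5 changed by 1.27 in pristane mice and by -0.57 in untreated mice, a difference of 1.84 (adjusted p = 0.00038). Prss39 had a difference of 1.91 (adjusted p = 0.0166), Mgll, the lipase of monoacylglycerols, 1.89 (0.46 under pristane and -1.43 without it, adjusted p = 0.028), Lamc1 1.65 (adjusted p = 0.00164) and Grap2, an adaptor of T cell and platelet receptors, 1.65 (0.50 and -1.15, adjusted p = 0.00829). Cd99l2, an adhesion protein related to CD99, had 1.57 (0.98 under pristane and -0.59 without it, adjusted p = 0.00107), Ndrg2 1.56 (adjusted p = 0.0123) and Rsph9, a radial spoke protein of cilia, 1.50 (adjusted p = 0.00269). For Mgll, Grap2 and Ndrg2 (0.86, adjusted p = 0.0519) the pristane change alone did not pass, and the 3 further probe sets of Cd99l2 (-0.07 to 0.10) did not pass either. The difference did not pass in further probe sets of Mgll (0.08 to 0.81), Grap2 (-0.02) and Lamc1 (-0.15).

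In the negative direction, the difference was -2.67 for Efnb2, the membrane ligand ephrin-B2 (-1.27 in pristane mice and 1.40 in untreated mice, adjusted p = 0.00361), and -2.34 for Tcf7l2, a transcription factor of Wnt signalling (-0.58 and 1.76, adjusted p = 0.00976). The RNA-binding protein Rbm47 had -2.10 (adjusted p = 0.013), Cbl -1.99 (-1.35 and 0.63, adjusted p = 3.58e-05), Rprd2 -1.94 (adjusted p = 0.000417), Nhsl2 -1.90 (adjusted p = 0.00164) and Il1rn -1.85 (-1.34 and 0.51, adjusted p = 0.00787). In further probe sets of Cbl, Rprd2 and Nhsl2 the difference did not pass. Cybb, the catalytic subunit of the phagocyte NADPH oxidase, had -1.90 (-0.62 in pristane mice and 1.28 in untreated mice, adjusted p = 0.00124). It ran from 6.93 to 8.14 (median 7.56) in pristane mice at week 14 and from 7.75 to 9.07 (median 8.07) at week 12, and from 8.26 to 9.17 (median 8.65) in untreated mice at week 14 and from 6.26 to 8.39 (median 7.41) at week 12. The pristane change of Efnb2, Tcf7l2, Rbm47 and Cybb did not pass on its own. By contrast, Lmbr1, Ikbkg, Tes3-ps, Dnaja4, Sec23a and Anp32e had negative values in untreated mice too, from -1.37 for Dnaja4 to -0.51 for Anp32e, and their difference from untreated mice did not pass.

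**Figure D2:**
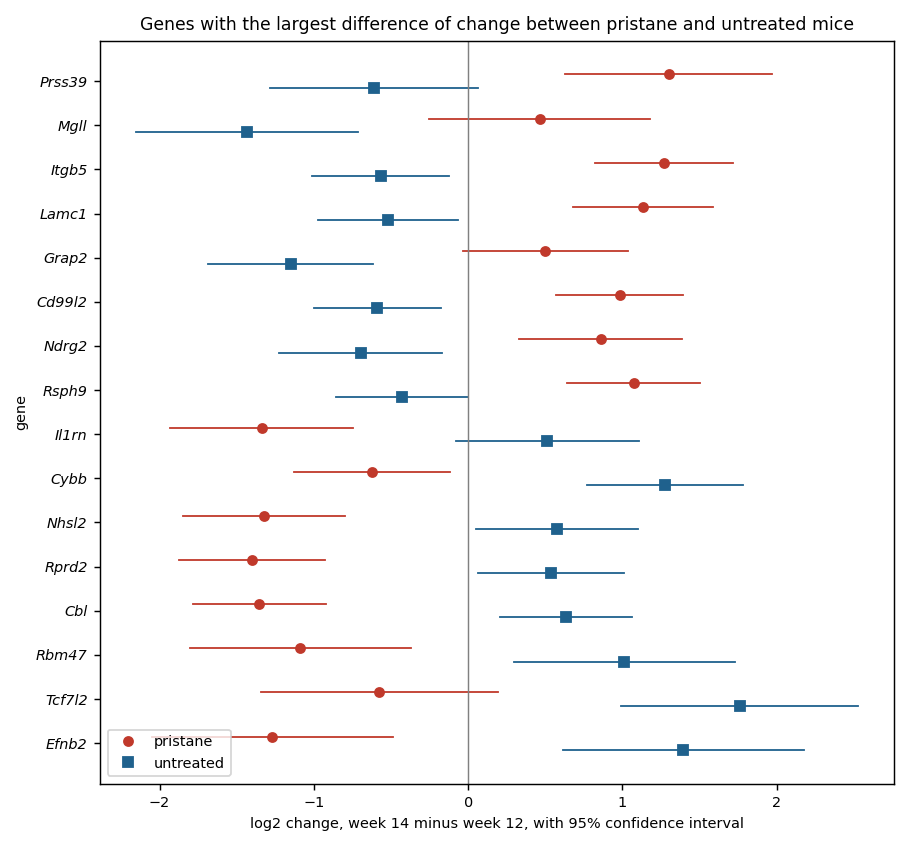
Log2 change from week 12 to week 14 with its 95% confidence interval (horizontal axis) in pristane mice (circles) and untreated mice (squares), for the 8 genes with the largest difference in each direction. The pristane value lies to the right in the upper 8 genes and to the left in the lower 8, with Efnb2 at -1.27 in pristane mice and 1.40 in untreated mice.

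Among 43 lists of cell markers, pathways and gene families, 22 had at least 1 member past an adjusted p under 0.05 and 21 had none. List counts below use this threshold without a fold limit, under which 2.2% of all genes were higher and 1.32% lower. Among platelet genes 4 of 15 rose and none fell, 13 were above 0, and the median change of 0.40 was the highest of the 43 list medians, against 0.02 over all genes. Vwf, the von Willebrand factor that tethers platelets to vessel walls, ran from 9.85 to 11.29 (median 10.95) in pristane mice at week 14 and from 9.39 to 10.52 (median 9.64) at week 12, with 5 arrays of week 14 above all of week 12 (0.96 ± 0.19, SE, adjusted p = 0.000973). Itga2b, a subunit of the fibrinogen receptor, ran from 9.81 to 11.15 (median 10.72) at week 14 and from 9.12 to 10.53 (median 9.81) at week 12 (0.72 ± 0.17, SE, adjusted p = 0.00798). Gp1bb, a chain of the von Willebrand factor receptor, ran from 9.64 to 10.60 (median 10.21) at week 14 and from 8.80 to 10.15 (median 9.24) at week 12 (0.86 ± 0.24, SE, adjusted p = 0.0271). Treml1, a receptor of platelet alpha granules, ran from 9.57 to 10.62 (median 10.35) at week 14 and from 8.79 to 10.28 (median 9.54) at week 12 (0.67 ± 0.19, SE, adjusted p = 0.0296).

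In each of the 4 genes every week 14 array was above the median of week 12, though the ranges overlapped. The same 4 genes were at -0.32 (Vwf), -0.56 (Itga2b), -0.07 (Gp1bb) and -0.39 (Treml1) in untreated mice, none passing, and the difference from untreated mice passed for Vwf (1.29), Itga2b (1.28) and Treml1 (1.06). The rise of Gp1bb did not pass with the Gapdh gap in the model, and those of Itga2b and Treml1 did not pass in a fit to the 16 pristane arrays. Of the 16 fits that leave out 1 pristane array, Gp1bb did not pass in 5 and Treml1 in 6. In whole blood, fewer cells of a type and less RNA per cell cannot be told apart, and the same holds for more.

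Erythroid genes moved in both directions. Of 24 members 2 rose and 1 fell, with a median of -0.14 (0.25 with the Gapdh gap in the model) and 8 above 0. Tal1, a transcription factor of red cell and megakaryocyte precursors, ran from 8.34 to 9.86 (median 9.44) in pristane mice at week 14 and from 7.56 to 9.05 (median 8.58) at week 12 (0.84 ± 0.20, SE, adjusted p = 0.00825), and Ppox, an enzyme of haem synthesis, rose by 0.66 ± 0.18 (SE, adjusted p = 0.0187). Without week 14 replicate 7, the array with the highest erythroid signal of the 16, Ppox was at 0.48 (adjusted p = 0.101). The alpha globin Hba-a2 was lower, from 9.25 to 10.78 (median 10.30) at week 14 and from 9.90 to 11.38 (median 10.91) at week 12 (-0.67 ± 0.20, SE, adjusted p = 0.0476). Hba-a2 did not pass with the Gapdh gap in the model or in 9 of the 16 fits that leave out 1 pristane array. Transcripts of the near-identical Hba-a1 could bind its probes. Of 11 genes of reticulocyte maturation, none rose and 2 fell, Ube2l6, a ubiquitin-like conjugating enzyme (-1.08 ± 0.25, SE, adjusted p = 0.00501), and Isca1, an iron-sulphur cluster protein (-0.45 ± 0.12, SE, adjusted p = 0.0158), both lost with the Gapdh gap in the model. The median of the reticulocyte list was -0.33 in pristane mice and -0.71 in untreated mice. Its difference from untreated mice passed for none of the 11 members, with -0.39 for Ube2l6 and -0.14 for Isca1. In untreated mice the erythroid median was -0.71 with no member passing. The erythroid difference from untreated mice passed for 4 of 24 members, all more positive under pristane. The mean signal of the erythroid list ran from 8.36 to 10.18 in pristane mice at week 14 and from 8.10 to 9.56 at week 12, and the named genes past the threshold between week 14 and week 12 stayed past it with this mean in the model. Of the 69 more positive and 149 more negative differences from untreated mice, 53 and 59 were called again with it.

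**Figure D3:**
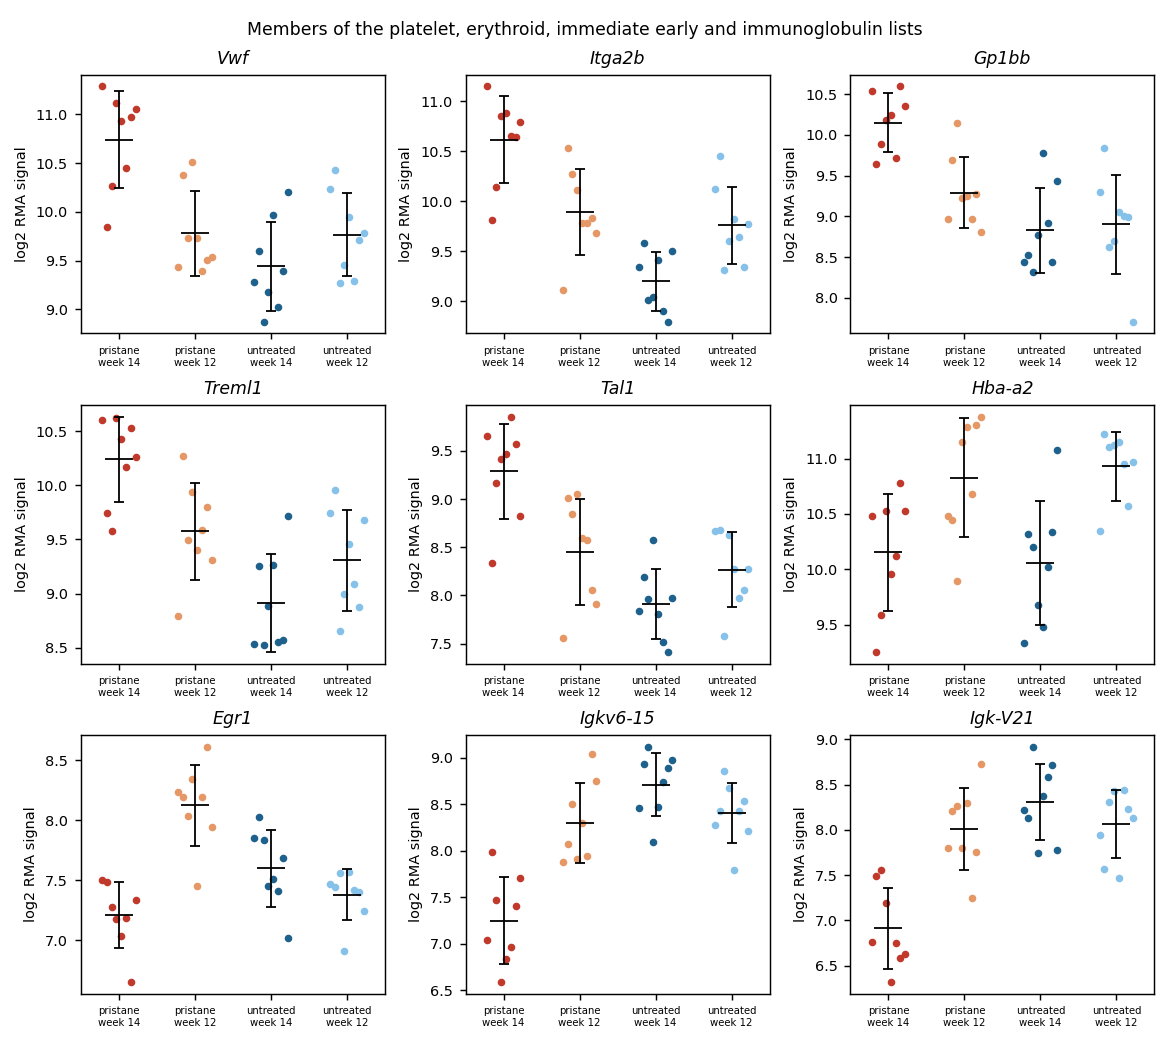
Log2 RMA signal (vertical axes, each panel with its own range) of platelet (Vwf, Itga2b, Gp1bb, Treml1), erythroid (Tal1, Hba-a2), immediate early (Egr1) and immunoglobulin (Igkv6-15, Igk-V21) genes in 4 groups. Points are single arrays and bars the mean ± SD of 8 arrays; platelet genes and Tal1 were higher at pristane week 14, as for Vwf with medians of 10.95 at week 14 and 9.64 at week 12, while the remaining 4 genes were lower.

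Neutrophil genes, with 1 exception, did not pass between the last weeks. In the mature neutrophil list 0 of 21 rose and 1, Il1rn, fell, with a median of 0.02, and in the immature granule list none of 16 passed, with a median of -0.10. S100a8, a subunit of the alarmin calprotectin, ran from 11.99 to 12.71 (median 12.34) in pristane mice at week 14 and from 12.08 to 12.53 (median 12.38) at week 12. Its change was 0.02 with a 95% interval from -0.26 to 0.30 (adjusted p = 0.978). Granule genes spread widely at week 14. Camp, the precursor of an antimicrobial cathelicidin, ran from 6.94 to 10.67 (median 8.75) at week 14 and from 8.60 to 10.41 (median 9.54) at week 12, and Ngp, the neutrophilic granule protein, from 7.66 to 10.04 (median 9.14) at week 14 and from 9.48 to 10.06 (median 9.64) at week 12. Their values of -0.74 for Camp and -0.69 for Ngp did not pass, nor did the siderophore-binding Lcn2 (-0.64), the chemokine receptor Cxcr2 (-0.71) or Padi4 (0.83), an enzyme that citrullinates histones.

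No member of the classical monocyte (16), patrolling monocyte (15), basophil and mast cell (10) or dendritic cell (12) lists passed. The further probe set of Ms4a6c, a membrane protein of the classical monocyte list, did pass (-0.92, adjusted p = 0.0296, with a difference from untreated mice of -1.80, adjusted p = 0.00288), opposite in sign to the brighter one used for the gene (0.49, adjusted p = 0.249). In the eosinophil list Prg2, the major basic protein, was lower (-0.88 ± 0.26, SE, adjusted p = 0.0367) at a dim signal with medians of 2.98 at week 14 and 4.12 at week 12, and it did not pass with the Gapdh gap in the model or in 9 of 16 fits that leave out 1 pristane array. Alox15, a lipoxygenase of mouse eosinophils and macrophages, was at -0.89 in pristane mice (adjusted p = 0.061) and at -1.29 in untreated mice (adjusted p = 0.045). The chemokine receptor Ccr2 of classical monocytes was at -0.53 in pristane mice and 0.89 in untreated mice, neither passing, and its difference passed (-1.42, adjusted p = 0.0156). The basophil protease Mcpt8 was at -1.07 (adjusted p = 0.0696) and the transcription factor Cebpb at 0.63 (adjusted p = 0.0784).

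The interferon response, which separates lupus blood from healthy blood in many settings, was read from the brightest probe sets of 32 genes. Of these members 1 rose and none fell. This is about the share over all genes (2.2% higher, 1.32% lower), and nothing is read from the count. The median was -0.15 and values ran from -0.68 to 0.83. In untreated mice the median was 0.22. The difference from untreated mice had a median of -0.35, against 0.09 over all genes, with 4 of 32 members above 0. Of 9 further probe sets of this list none passed higher and 1, of Rsad2, passed lower. The riser was Lgals3bp, a secreted glycoprotein that binds galectins. It ran from 7.82 to 9.16 (median 8.97) in pristane mice at week 14 and from 7.53 to 8.63 (median 7.98) at week 12, with 7 arrays of week 14 above all of week 12 (0.83 ± 0.21, SE, adjusted p = 0.0133). Dtx3l, a ubiquitin ligase of the interferon response, was at -0.47 in pristane mice (adjusted p = 0.101) and 0.60 in untreated mice, and its difference passed (-1.07, adjusted p = 0.00482). The antiviral restriction factor Trim30a was at -0.53 (adjusted p = 0.152). None of 10 interferon-induced GTPases and none of 23 genes of nucleic acid sensing passed.

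Immediate early genes, which cells switch on within minutes of a stimulus, were lower at single members. Egr1, a zinc finger factor of this class, ran from 6.65 to 7.51 (median 7.23) in pristane mice at week 14 and from 7.45 to 8.61 (median 8.20) at week 12, with 6 arrays of week 14 below all of week 12 (-0.92 ± 0.20, SE, adjusted p = 0.00255). It was the 1 of 23 members that passed, and none rose. The change of Egr1 in untreated mice was 0.22, and the difference passed for Egr1 (-1.14), for the AP-1 subunit Jun (-1.55) and for the stress gene Gadd45b (-1.15). In pristane mice Jun was at -0.86 (adjusted p = 0.0603) and Gadd45b at -0.64 (adjusted p = 0.116). The other probe set of Jun gave 0.11 in pristane mice and a difference of -0.45 (adjusted p = 0.512). In the complement and Fc receptor list C3ar1, the receptor of C3a, was lower (-0.65 ± 0.20, SE, adjusted p = 0.0464), and in the inflammatory mediator list Il6 was lower (-0.59 ± 0.18, SE, adjusted p = 0.0493) at signals near the floor, with medians of 1.91 at week 14 and 2.71 at week 12. Both genes missed the adjusted p threshold in most fits that leave out 1 pristane array (12 of 16 for C3ar1 and 11 of 16 for Il6).

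No lymphocyte marker passed in either direction, of 19 for B cells, 20 for T cells, 19 for activated and regulatory T cells, 18 for NK and cytotoxic cells and 11 for plasma cells. Immunoglobulin genes stood otherwise: of 16 genes in this family 4 fell, none rose, and the median was -0.10. None of the 9 further probe sets of this family passed. Those of Igk-V21 gave -0.67 and -0.29 and that of Igkv6-15 gave -0.69 (adjusted p = 0.0519). Igkv6-15, a kappa light chain variable segment, ran from 6.59 to 7.98 (median 7.22) in pristane mice at week 14 and from 7.88 to 9.04 (median 8.18) at week 12, with 7 arrays of week 14 below all of week 12 (-1.05 ± 0.23, SE, adjusted p = 0.00232). Igk-V21 ran from 6.32 to 7.56 (median 6.76) at week 14 and from 7.24 to 8.73 (median 8.01) at week 12 (-1.10 ± 0.25, SE, adjusted p = 0.00515). In untreated mice of week 14 Igkv6-15 ran from 8.09 to 9.12 and Igk-V21 from 7.75 to 8.92, above every pristane array of that week.

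The other falls in the family were 2 further kappa variable segments with smaller changes. Variable segments are similar in sequence, so a probe set may read several of them. The difference from untreated mice passed for 3 of 16 members, among them Igkv6-15 (-1.36) and Igk-V21 (-1.34). Jchain, which joins secreted IgM and IgA, was at -0.90 (adjusted p = 0.115). The cytotoxic genes as a list had a median of -0.26 in pristane mice and 0.44 in untreated mice. Nkg7, a cytotoxic granule protein, was at -0.77 (adjusted p = 0.146), and Ncr1, the NK cell receptor NKp46, at -0.78 (adjusted p = 0.16) with a difference from untreated mice of -1.53 (adjusted p = 0.0367).

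In most of the larger housekeeping families the share of members that passed was about that over all genes (2.2% higher, 1.32% lower), and nothing is read from these counts about the families. Among 52 translation factors 3 fell and none rose, the initiation factor subunit Eif3e (-0.58 ± 0.16, SE, adjusted p = 0.0251) and the elongation factor subunits Eef1b2 (-0.39 ± 0.11, SE, adjusted p = 0.0255) and Eef1d (-0.66 ± 0.19, SE, adjusted p = 0.0301). Among 70 cytosolic ribosomal proteins Rps9 (-0.31) and Rpl17 (-0.28) fell and Rpsa (0.71), also known as the laminin receptor, rose, with a list median of -0.04. The chaperonin subunit Cct8 fell by 0.64 on the log2 scale (adjusted p = 0.000631), with 7 of 8 arrays of week 14 below all of week 12. Calr, the calcium-binding chaperone calreticulin, was lower by a smaller margin in its brightest probe set (-0.38, adjusted p = 0.0353). The other probe set of Calr gave -0.65 (adjusted p = 0.00122), and that of Cct8 (-0.09) did not pass. Of 73 mitochondrial ribosomal proteins Mrps26 (0.99) and Mrps24 (0.61) rose, and of 87 genes of oxidative phosphorylation Ndufs7 (0.81) and Atp5d (0.58) rose while Atp5mpl (-0.74) fell.

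In glycolysis 2 of 18 genes rose, triosephosphate isomerase Tpi1 (0.67 ± 0.17, SE, adjusted p = 0.0165) and hexokinase Hk1 (0.63 ± 0.17, SE, adjusted p = 0.0238), and pyruvate kinase Pkm was at 0.55 (adjusted p = 0.0554). Of 301 zinc finger genes of the Zfp series 8 rose, led by Zfp335 (0.95, adjusted p = 0.000208) and Zfp637 (0.92, adjusted p = 0.0135), and 1 fell. Of 48 DEAD and DEAH box helicases Dhx38 (0.50), Dhx34 (0.76) and Ddx41 (0.67) rose and Ddx21 (-0.84), a nucleolar helicase of ribosome production, fell. Among 104 splicing genes Hnrnpul1 (-0.67) and Hnrnpul2 (-0.78) fell and Snrnp70 (0.56) rose, and among 29 histone genes H4c9 (0.68) rose and H3f3a (-0.63) fell. With the Gapdh gap in the model Eef1d, Rps9, Rpsa, Mrps24, Ndufs7, Atp5d, Atp5mpl, Hk1, Dhx34, Ddx41, Hnrnpul1, Hnrnpul2, Snrnp70 and H3f3a no longer passed. Leaving out 1 pristane array ended the result of Snrnp70 in 11 of 16 fits, of Calr in 10, of Ndufs7 and Ddx41 in 9, of Hnrnpul2 in 8, of Eef1d and H3f3a in 7, of Eif3e and Atp5d in 6, of Dhx34 in 5 and of Eef1b2 and H4c9 in 4. It ended those of Rpl17, Mrps24 and Hk1 in 3 fits, of Tpi1, Mrps26 and Hnrnpul1 in 2 and of Dhx38 in 1. No member passed among 33 cell cycle, 37 proteasome, 44 ubiquitin-specific protease, 14 glucocorticoid response, 12 MHC class II or 11 MHC class I pathway genes.

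These counts read each gene from its brightest probe set, and further probe sets could differ. The share that passed over all further probe sets was not counted, so nothing is read from the counts below about the families. With the 2-fold threshold added, 56 of all 28898 single-gene probe sets were called higher and 139 lower. Of 37 further probe sets of the helicases 6 passed, all lower, where the brightest ones gave 3 rises and 1 fall. Further probe sets of the splicing genes passed 6 times lower and 1 time higher of 139, those of the translation factors 4 times lower and 1 time higher of 56, and those of the unfolded protein response 4 times lower of 26. Of 50 for ubiquitin-specific proteases 2 passed higher and 4 lower, among them 1 of Usp30, a deubiquitinase of mitochondria (1.002, adjusted p = 0.0287), whose brightest probe set gave 0.61 (adjusted p = 0.0936) with all 8 arrays of week 14 above all of week 12. In the MHC class I list a further probe set of H2-D1, a classical heavy chain, passed (0.39, adjusted p = 0.0303) beside 0.36 for the brightest (adjusted p = 0.113). Of the proteasome and glucocorticoid lists 1 further probe set each passed, both lower.

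**Figure D4:**
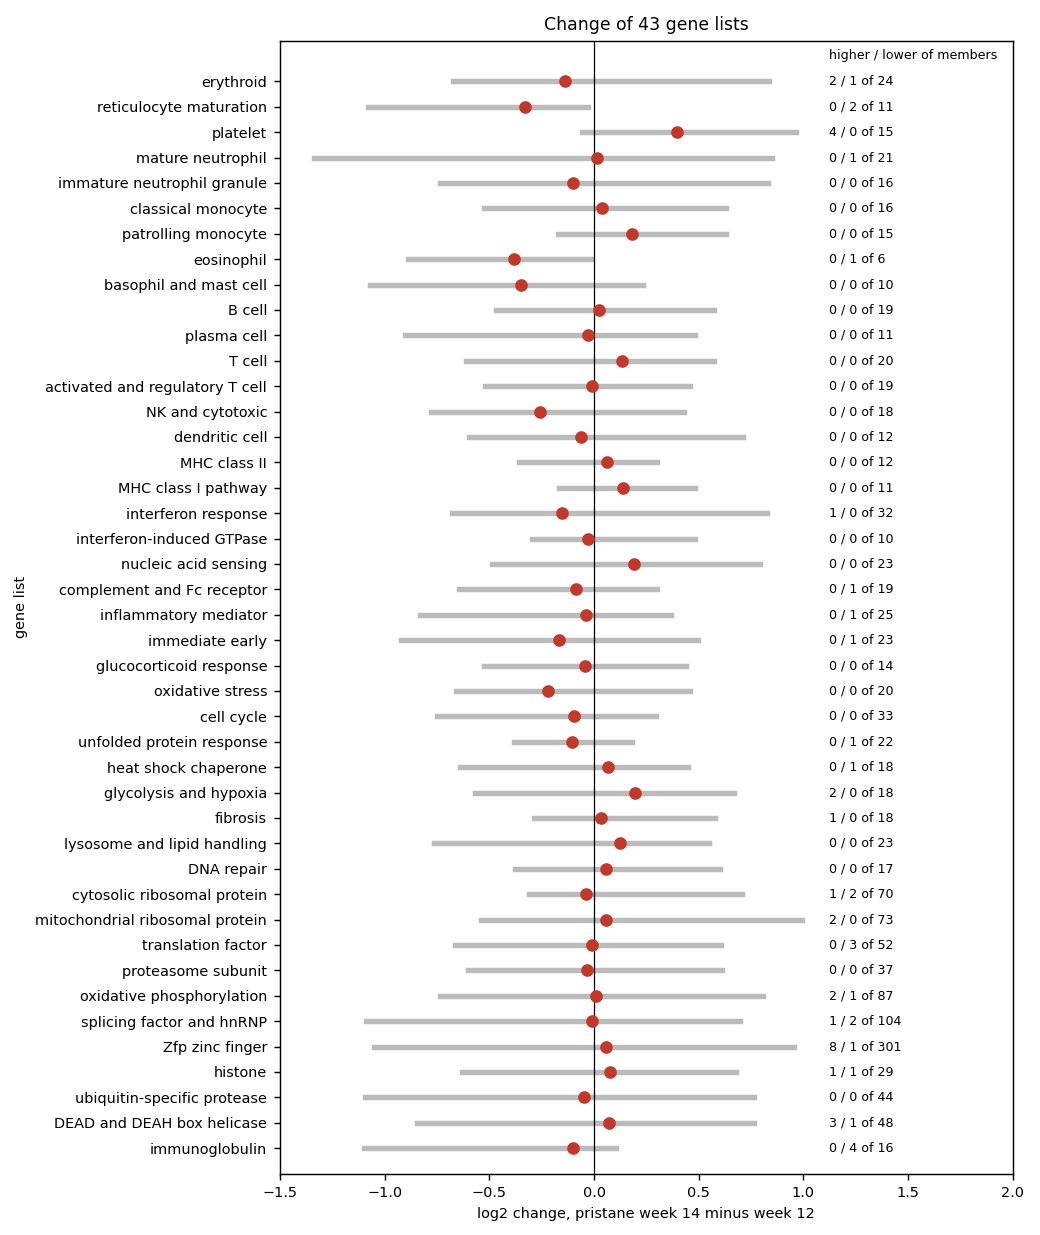
Log2 change from week 12 to week 14 in pristane mice (horizontal axis) for 43 gene lists. Circles are list medians, grey bars run from the lowest to the highest member, and the text gives how many members passed an adjusted p under 0.05 in each direction; list medians ran from -0.38 to 0.40, highest for platelet genes.

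Over the whole course, the genes shown, of which Vwf and Egr1 changed by under 2-fold at week 14, differed in their path to week 12. The median of Slc38a10 in pristane mice was 7.89 at week 2, 8.03 at week 4, 8.23 at week 8, 8.05 at week 12 and 9.27 at week 14. That of Cbl was 7.30 at week 2, 7.27 at week 4, 7.14 at week 8, 7.18 at week 12 and 5.96 at week 14, and that of Fam204a 5.54, 5.27, 5.48, 5.40 and 4.07 at the same weeks. In these 3 genes, named for their change at week 14, the step at week 14 was larger than the span of the earlier medians. Egr1 took another path, with medians of 7.47, 7.61, 7.58, 8.20 and 7.23 at weeks 2, 4, 8, 12 and 14, so its fall started from the highest week. Igkv6-15 likewise had its highest pristane median at week 12 (7.95, 7.54, 7.74, 8.18 and 7.22), and against week 8 in place of week 12 neither gene passed.

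**Figure D5:**
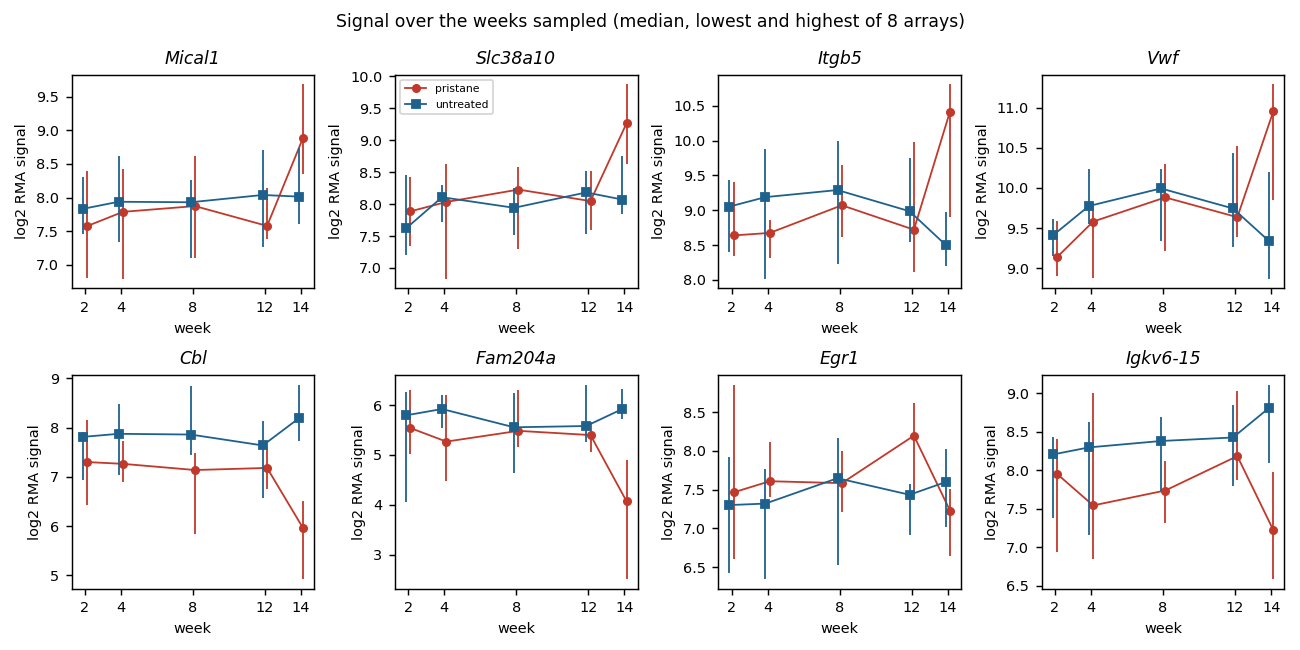
Log2 RMA signal (vertical axes, each panel with its own range) of 8 genes against week (horizontal axis) in pristane mice (circles) and untreated mice (squares). Symbols are medians of 8 arrays and vertical lines run from the lowest to the highest array; in the upper 4 genes the pristane median was highest at week 14, as for Itgb5 at 10.42, and in the lower 4 genes it was lowest at week 14.

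Of 12 genes that the study follows in kidney, 11 could be tested in blood and none passed between the last weeks, with changes from -0.29 to 0.32. Ifih1, the cytosolic sensor of double-stranded RNA, ran from 7.73 to 8.79 (median 8.13) in pristane mice at week 14 and from 7.32 to 8.35 (median 7.86) at week 12 (0.30, adjusted p = 0.625). Sting1, the adaptor of cytosolic DNA sensing, was at 0.32 (adjusted p = 0.395), and Timp1, an inhibitor of matrix metalloproteinases, at 0.08 (adjusted p = 0.887). In the fibrosis list Igfbp5 passed at 0.54 (adjusted p = 0.0331), with 1 array of week 14 at 4.65 where the next stood at 2.88 and all of week 12 were at 2.41 or below. Without that array, replicate 7, it was at 0.26 (adjusted p = 0.208), and it did not pass in 6 of the 16 fits that leave out 1 pristane array.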

How the data were processed

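The authors extracted RNA from whole blood with Trizol, labelled it with the NuGEN Ovation Biotin system, hybridised it to Affymetrix HT MG-430 PM arrays and deposited log2 signals per probe set made with RMA; the submitters' processing notes also name Partek. RMA compresses the fold changes of dim probe sets. The labels give no plate, scan or animal number. Controls (104 of 45141 probe sets) were dropped, which left 45037 for testing. The array's probe table gave 1 gene for 28898, several for 551 and none for 15588 (28 of these were called higher and 62 lower, unnamed here), and 17097 genes were each read from the brightest of their single-gene probe sets by mean signal across 88 arrays. One limma 3.58.1 model (R 4.3.3) of 11 group means gave all contrasts, with Benjamini-Hochberg adjustment over 45037 probe sets. It was tested on simulated data with 200 changed genes.

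The members, lists and naming rule were chosen with earlier results of these data known. The rule took the 15 largest rises and falls, the 8 largest differences from untreated mice each way, the 4 list members with the largest moderated t, and 12 genes studied in kidney, of which Aim2 is not analysed here. Clones and some list members stay unnamed. Replicate numbers were not used to pair samples.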

Additional observations from a re-analysis of the deposited data

Results flagged for a closer look

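Single arrays stood far from the rest of their group of 8 in 13 of 212 gene and group combinations examined by Dixon's ratio, where chance gives about 1 in 20. In pristane mice at week 14 these were Dnah8 in replicate 4 (3.92, next value 5.22), Nlrx1 in replicate 2 (7.17, next 8.54), Lgals3bp in replicate 2 (7.82, next 8.69), H4c9 in replicate 2 (8.41, next 9.18), Grap2 in replicate 7 (8.95, next 7.59), Trim30a in replicate 7 (7.81, next 8.99), Igfbp5 in replicate 7 (4.65, next 2.88) and Pkm in replicate 6 (9.85, next 10.15). In pristane mice at week 12 they were Mrps24 in replicate 3 (8.38, next 7.82), Atp5mpl in replicate 3 (9.57, next 10.31), Efnb2 in replicate 4 (6.70, next 5.52), S100a8 in replicate 8 (12.08, next 12.32) and Usp30 in replicate 7 (4.33, next 5.20). Replicates 2 and 7 of week 14 each appear 3 times.

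The change from week 12 to week 14 differed between pristane and untreated mice in 44 of the 106 genes named, 24 with a more positive and 20 with a more negative change under pristane. Many of these genes were named for this difference or for their pristane change, so nothing is read from the count. Over all genes 0.877% were more positive and 1.28% more negative at the adjusted p alone. Beside those given in the report with their values (Prss39 1.91, Mgll 1.89, Itgb5 1.84, Lamc1 1.65, Grap2 1.65, Cd99l2 1.57, Ndrg2 1.56 and Rsph9 1.50), the more positive were Dnah8 (1.49), Rasal3 (1.37), Vwf (1.29), Itga2b (1.28), Mical1 (1.27), Nlrx1 (1.27), Zfp637 (1.24), Tal1 (1.20), Fkbp8 (1.19), Treml1 (1.06), Zfp335 (1.06), H4c9 (1.02), Slc38a10 (0.96), Ppox (0.86), Tpi1 (0.84) and Dhx38 (0.68). The more negative were Efnb2 (-2.67), Tcf7l2 (-2.34), Rbm47 (-2.10), Cbl (-1.99), Rprd2 (-1.94), Nhsl2 (-1.90), Cybb (-1.90), Il1rn (-1.85), Fam204a (-1.62), Jun (-1.55), Ncr1 (-1.53), Ccr2 (-1.42), Ddx21 (-1.36), Igkv6-15 (-1.36), Igk-V21 (-1.34), Gadd45b (-1.15), Egr1 (-1.14), Dtx3l (-1.07), Eif3e (-1.06) and Mrfap1 (-0.83).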

How the results depend on the processing

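Without a fold threshold 376 genes were higher and 225 lower in pristane mice at week 14 than at week 12. Other settings that moved these counts by over 1.5 times were the 16 arrays alone (20 higher, 18 lower), the mean over a gene's probe sets (23 higher, 21 lower) and week 8 in place of week 12 (100 higher, 132 lower). Leaving out each pristane array in turn gave 26 to 62 higher and 36 to 85 lower genes. Of the 36 and 50 genes, 17 and 31 were also called with the Gapdh gap in the model, an alternative chosen after seeing the data. For the difference from untreated mice, the more positive calls were 107 with quantile normalization, 125 with arrays centred on bright probe sets, 169 with the interquartile range, 131 with the erythroid signal and 127 with the Gapdh gap in the model. The more negative calls were 95 with the interquartile range, 93 with the mean over probe sets and 235 with the Gapdh gap. Leaving out each pristane array gave 45 to 131 and 89 to 209. The untreated count of 8 became 4 with the 32 arrays compared alone, 19 with quantile normalization, 2 with centring, 1 with the interquartile range, 0 with the erythroid signal, 53 with dim probe sets left out, 227 with array weights, 13 with the replicate block and 0 with the Gapdh gap, and 6 to 12 without 1 pristane array. The cause of these shifts was not tested.

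The deviations of same-numbered arrays from their group means correlated from -0.26 to 0.237 over the 8 numbers. Of 8 arrays 1 was best matched to its own number, and numbers were not treated as pairs. Whether a mouse was sampled at both weeks cannot be told from these correlations or from the labels. With the replicate block 38 genes were higher and 51 lower, and for the difference 83 and 165. No named gene past the threshold changed direction in any alternative. Among the genes that did not pass, the sign turned with week 8 in place of week 12 for Grap2 (-0.11), Efnb2 (0.42), Tcf7l2 (1.04), Ccr2 (0.074), Ncr1 (0.13) and S100a8 (-0.018), and for S100a8 also with centring (-0.012), the interquartile range (-0.00039), the Gapdh gap (-0.16) and without single arrays (-0.030 to 0.072 over the 16). The sign of Ms4a6c turned with the mean over its probe sets (-0.22). With 8 arrays a group, precision is limited by their number.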
